A study of Mus musculus with 194 samples.

Results

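The 12 animals described here are the Cre-negative mice of 2 Cre lines, 6 labelled Syn1CreNeg and 6 labelled GFAPCreNeg, out of 46 animals in the series. They were chosen by label: every Syn1CreNeg and GFAPCreNeg cortex that did not receive the virus labelled Frontflip. The study recorded insertions of a self-reporting transposon, a piggyBac-type element that a transposase places at TTAA sequences and that is then read from RNA transcribed out of the insertion. Adeno-associated virus was injected on postnatal day 0 to 1, each cortex was divided into 10 pieces, and the insertions of the pieces were combined per animal. All 12 mice carry the label of a Cre line and the word Neg. The labels do not give strain, sex, age at collection, littermate status, the transposase or the exact viral construct of these animals. By their names, the Syn1 promoter, active in neurons, and the GFAP promoter, active in astrocytes and some progenitors, drive the Cre of these lines. For context, 6 Syn1Cre, 6 GFAPCre and 2 C57bl6J animals, the last with no Cre line in their labels, were used. The question was whether insertions made without Cre mark the same cell programs in both lines.

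A Cre-dependent transposase should stay silent until Cre inverts its gene, and insertions found without Cre are commonly called leak. Free piggyBac transposase inserts preferentially near active enhancers, so dense insertions tend to fall at genes that define the identity of the cells in which the transposase was made. In cortex, astrocytes clear glutamate and buffer potassium, pyramidal neurons carry excitation, and interneurons, which depend on Dlx homeobox factors, carry inhibition. In such bulk tissue, more cells of a type and more insertions per cell cannot be told apart.

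Slc1a3, the glutamate transporter GLAST, and Gja1, the gap junction protein connexin 43, are astrocyte genes given as markers for these animals, and their promoters show where the counted events lie. Each sequence is the RefSeq promoter window of GRCm38.p6, 250 bases before to 50 after the annotated start, 5′ to 3′ on the gene's strand, with each TTAA in capitals. The first is chr15:8710758-8711057 on the minus strand and the second chr10:56377050-56377349 on the plus strand.
Slc1a3: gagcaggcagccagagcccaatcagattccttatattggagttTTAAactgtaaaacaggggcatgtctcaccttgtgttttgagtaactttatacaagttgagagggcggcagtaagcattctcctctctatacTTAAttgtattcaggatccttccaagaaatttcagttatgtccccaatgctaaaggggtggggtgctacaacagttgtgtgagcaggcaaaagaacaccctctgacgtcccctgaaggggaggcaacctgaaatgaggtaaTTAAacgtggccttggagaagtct
Gja1: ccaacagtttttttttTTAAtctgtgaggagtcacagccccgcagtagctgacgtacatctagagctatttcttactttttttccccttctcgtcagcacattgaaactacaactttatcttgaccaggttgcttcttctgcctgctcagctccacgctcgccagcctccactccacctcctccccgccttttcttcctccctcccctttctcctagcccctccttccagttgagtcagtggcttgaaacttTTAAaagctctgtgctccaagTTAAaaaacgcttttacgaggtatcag
Both windows hold 3 TTAA sites, and all 6 sites were used in both groups. At the first Slc1a3 site, 207 bases before the start, 9 insertions from 4 Syn1CreNeg animals and 5 from 4 GFAPCreNeg animals were listed. At the Gja1 site that begins 23 bases after the start, 10 insertions came from 3 Syn1CreNeg animals and 20 from 6 GFAPCreNeg animals. Each of these counts is too small for a comparison between groups at a single site. TTAA (its own reverse complement, so 1 search covers both strands) occurs in 52.3% of the 31365 RefSeq promoter windows on chromosomes 1 to 19, and 100% of the 55024 Cre-negative insertions in those windows began exactly on one.

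The depth of the animals differed within and between the groups. Syn1CreNeg animals had 95188 to 542788 insertions on chromosomes 1 to 19 (median 261981) and GFAPCreNeg animals 202904 to 582884 (median 416020). Syn1CreNeg animals 1 to 3, whose sample titles carry _Ctx, had 95188 to 116388, and animals 4 to 6, whose titles do not, had 407574 to 542788. The groups overlapped, and the difference of mean log10 insertions, -0.26, was not past the threshold (two-sided p = 0.134 by exact permutation of the animals, adjusted p = 0.224 over 5 single values, n = 6 each, smallest possible p 0.00216). Animals of the 2 groups never shared a sequencing pool, and the effect of the pools therefore cannot be told apart from that of the groups. Syn1CreNeg animals 1 to 3 shared pools with GFAPCre animals 1 to 3. Syn1CreNeg animals 4 to 6 shared pools with Frontflip GFAPCre and Frontflip GFAPCreNeg animals. GFAPCreNeg animals 1, 3, 4 and 6 also shared pools with GFAPCre animals. Whether these pool partners had a part in any value was not tested.

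GFAPCreNeg animal 6 stood apart from the other GFAPCreNeg animals. It had the fewest insertions of its group (202904) and the highest share of them at astrocyte loci, 1.95%, against 1.05% to 1.25% in the other 5. Among the 6858 gene loci tested, it was the highest GFAPCreNeg animal at 29.0% and the lowest at 29.8%. It was the highest at 38 of the 41 astrocyte loci and the lowest at 11 of 15 pan-neuronal loci. Over all 6858 loci, its correlations with the other GFAPCreNeg animals lay below those of animals 1 to 5 with each other. With every animal thinned to 95188 insertions, Pearson's r of log2 CPM (insertions at a locus scaled to a common library total) over these loci, given as a description, was 0.758 to 0.772 with the other GFAPCreNeg animals and 0.754 to 0.795 with Syn1CreNeg animals, against 0.781 to 0.797 among GFAPCreNeg animals 1 to 5. It shared some of its sequencing pools with GFAPCreNeg animal 3, whose astrocyte share was 1.25%, and with GFAPCre animal 5. Whether depth or pool had a part in this was not tested. Values without this animal are given beside those with it where they differ in call or count.

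The share of insertions near gene ends had a higher median in Syn1CreNeg, a difference that did not pass the threshold with all 12 animals. Insertions within 1 kb of an end of a protein-coding gene made up 8.06% to 8.94% in Syn1CreNeg animals (median 8.49%) and 7.50% to 8.43% in GFAPCreNeg animals (median 7.84%), where such positions are 3.04% of the length. The difference of the means was 0.60 percentage points (p = 0.0152 in the exact two-sided permutation test, adjusted p = 0.0758, n = 6 each), and GFAPCreNeg animal 6 had the highest value of its group. The other 5 had 7.50% to 7.97%, below every Syn1CreNeg animal, and without animal 6 the difference was 0.72 points (exact permutation, p = 0.00433, adjusted p = 0.0216, n = 6 and 5). It also passed without Syn1CreNeg animal 4 (0.69 points, exact permutation, adjusted p = 0.0433) and with only Syn1CreNeg animals 1 to 3 (0.88 points, exact permutation, adjusted p = 0.0198, n = 3 and 6). With only Syn1CreNeg animals 4 to 6 it was 0.33 points (exact permutation, adjusted p = 0.387). Inside protein-coding genes lay 62.3% to 62.9% of Syn1CreNeg and 62.3% to 64.5% of GFAPCreNeg insertions (exact permutation p = 0.249, adjusted p = 0.277, n = 6 each), against 57.1% to 60.8% in Syn1Cre, 58.5% to 60.5% in GFAPCre and 54.1% to 54.3% in C57bl6J animals. Gene bodies cover 40.0% of the length. All 12 Cre-negative animals lay above every Syn1Cre, GFAPCre and C57bl6J animal in this share. Distinct positions per insertion (76.7% to 89.8% against 78.4% to 82.1%) and reads per insertion (19.9 to 32.4 against 9.24 to 28.6) also missed the threshold (exact permutation, adjusted p = 0.277 and 0.224, n = 6 each). Without animal 6, insertions, the share inside genes, distinct positions and reads per insertion had adjusted p = 0.224, 0.474, 0.333 and 0.0703 by the same exact test.

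Most of the densest loci were shared by both groups. Ranked by mean CPM per kb, over the gene body with 10 kb flanks, 14 of the 15 densest loci of Syn1CreNeg were among the 15 densest of GFAPCreNeg, or 11 of 15 without GFAPCreNeg animal 6. Sox2, a factor of neural progenitors and astroglia, had 38.1 to 56.9 CPM per kb in Syn1CreNeg animals (median 44.3) and 25.5 to 54.8 in GFAPCreNeg animals (median 28.7). Pou3f2 and Pou3f3, neural POU factors, had medians of 29.7 and 23.0 in Syn1CreNeg and 19.4 and 16.6 in GFAPCreNeg. Others shared were Cpe, Skida1, Nr2f1, Zbtb18, Ptn, Gm46608, Sall1, Trim9, Sparcl1 and Tcf4. Dio2, which activates thyroid hormone in astrocytes, was among the 15 only in Syn1CreNeg, at rank 15 against 21 in GFAPCreNeg, and Bhlhe22, a factor of cortical neurons, only in GFAPCreNeg, at rank 14 against 18. Those ranks were not compared by a test.

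Several of these loci were less dense in the C57bl6J animals. Sparcl1, an astrocyte-secreted matrix protein, had 11.8 to 14.2 CPM per kb in Syn1CreNeg and 8.67 to 18.3 in GFAPCreNeg, against 3.12 and 3.18 in the 2 C57bl6J animals. Ptn, a growth factor made by glia, had 12.6 to 19.3 and 10.9 to 25.2, against 3.01 and 3.11. Zbtb18, a repressor active in projection neurons, lay the other way for most animals, with 13.2 to 25.7 and 12.7 to 16.4, against 21.8 and 19.8. The astrocyte list (48 genes, 47 loci that do not overlap) held 1.24% to 1.75% of Syn1CreNeg insertions and 1.05% to 1.95% of GFAPCreNeg insertions. The same loci held 0.443% to 1.24% in Syn1Cre, 0.551% to 1.01% in GFAPCre and 0.399% to 0.419% in C57bl6J. Of the list, Dio2, Slc39a12, Atp13a4, Pla2g7 and Npas3 were added after appearing in earlier results on Cre-negative animals. The order of the animals in this share is therefore a description and supports no difference. Every Cre-negative animal lay above every GFAPCre and C57bl6J animal, and above 5 of 6 Syn1Cre animals. The remaining one, Syn1Cre animal 5, had 1.24% and, with 432664 insertions, the fewest of its group. The 2 C57bl6J animals had 1510040 and 2133377 insertions, with 3.14 and 4.08 reads per insertion. Cre-negative animals had at most 582884 insertions, with 9.24 to 32.4 reads per insertion. Against C57bl6J, depth and label therefore cannot be told apart. Whether depth had a part in the differences from Syn1Cre and GFAPCre animals was not tested.

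**Figure D1:**
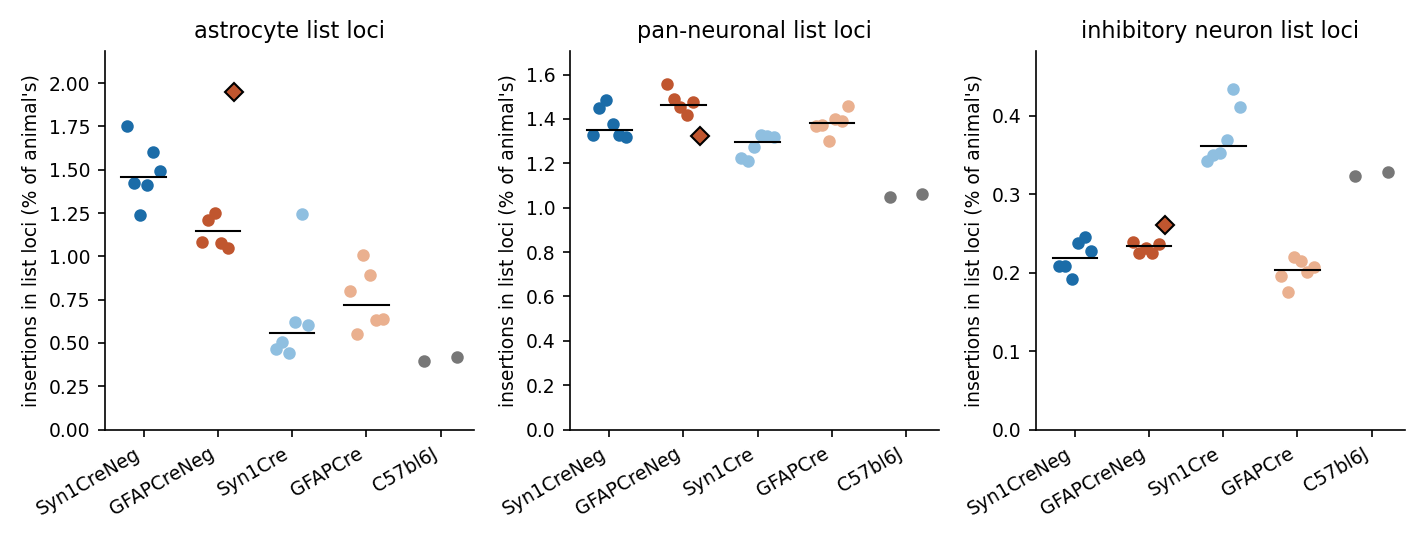
Share of each animal's insertions (percent, y axis) in the loci of the astrocyte, pan-neuronal and inhibitory neuron lists. Each circle is 1 animal, the diamond is GFAPCreNeg animal 6 and the lines are group medians. Astrocyte loci held 1.05% to 1.95% in the 12 Cre-negative animals and at most 0.419% in C57bl6J. Some astrocyte genes were listed after appearing in earlier results on Cre-negative animals.

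Gene by gene, the Cre-negative groups differed at few loci. Of 6858 loci tested with edgeR's quasi-likelihood test, 2 were higher in Syn1CreNeg (0.0292% of those tested) and 1 was lower (0.0146%) at a Benjamini-Hochberg adjusted p under 0.05, and 771 had an unadjusted p under 0.05. None of the 3 had groups without overlap, so none met the rule for named loci, and they are named here after their values were seen. Eps8, an actin regulator (chromosome 6, 137477245 to 137649397), had 119 to 217 CPM in Syn1CreNeg (median 173) and 82.6 to 139 in GFAPCreNeg (median 98.2). Its log2 fold change was 0.87 (SE 0.15, adjusted p = 0.00309, edgeR). Elovl7, a fatty acid elongase (chromosome 13, 108214326 to 108287109), had 48.6 to 131 (median 91.4) and 41.1 to 52.1 (median 43.4), with a difference on the log2 scale of 1.03 (SE 0.19, adjusted p = 0.00395, edgeR). In 1 Syn1CreNeg animal of 6 Elovl7 fell within the GFAPCreNeg range. Cdh12, a neuronal cadherin (chromosome 15, 20448878 to 21598421), was lower, with 595 to 1011 (median 757) and 898 to 1286 (median 1196), with a difference of -0.54 (SE 0.11, adjusted p = 0.0403, edgeR). At 28 loci (0.408%) the animals of the groups did not overlap. Gria2, which encodes an AMPA receptor subunit, was the only member of the 14 gene lists among them, with 925 to 1038 in Syn1CreNeg and 1094 to 1176 in GFAPCreNeg (log2 -0.22, SE 0.10, adjusted p = 0.371, edgeR).

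In 50 kb windows, 9 of 11250 were higher in Syn1CreNeg (0.0800%) and 5 lower (0.0444%), with 1218 at an unadjusted p under 0.05. The only window that met the naming rule lies inside Csmd3, a large gene of CUB and sushi domains expressed in neurons, at chr15:48600001-48650000. It had 37.0 to 65.8 CPM in Syn1CreNeg (median 55.2) and 72.0 to 113 in GFAPCreNeg (median 100.2), so the groups did not overlap (log2 -0.82, SE 0.19, adjusted p = 0.0466, edgeR). The other windows, named after their values were seen, overlapped Ceacam15, Elovl7, Eps8, Msi2, Npas3 and Prdm16 on the higher side, with 3 higher windows in no protein-coding gene. On the lower side they overlapped Cacna2d3, Spag16 with Vwc2l, Tafa2 and Cdh12. At the windows of Cdh12 (8.67 to 29.3 CPM against 37.5 to 59.8) and Tafa2 (21.9 to 42.4 against 42.6 to 68.0) the animals did not overlap either, but their mean levels lay under that of the median window, which the rule sets as its minimum. The log2 fold changes ran from 0.76 at Prdm16, a zinc finger factor of neural progenitors, to 1.36 at Ceacam15, and from -0.94 at Cacna2d3 to -1.22 at Cdh12.

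Of the given markers, Slc1a3 and Gja1 leaned toward Syn1CreNeg without passing the threshold, and Npas3 lay within the middle quartiles of all loci. Slc1a3 (chromosome 15, 8634124 to 8710807) had 947 to 1284 CPM in Syn1CreNeg (median 1076) and 672 to 1454 in GFAPCreNeg (median 724), on 91 to 446 insertions per animal. All 6 Syn1CreNeg animals lay above GFAPCreNeg animals 1 to 5, whose highest value was 798, and GFAPCreNeg animal 6 lay above them all. The log2 fold change was 0.42 (SE 0.13, adjusted p = 0.177, edgeR). Gja1 (chromosome 10, 56377300 to 56390419) had 210 to 316 (median 245) and 139 to 348 (median 174), with the same arrangement of the animals (log2 0.38, SE 0.15, adjusted p = 0.313, edgeR). Npas3, a bHLH-PAS factor of astrocytes and progenitors (chromosome 12, 53248026 to 54072173), had 2839 to 4688 (median 4241) and 2927 to 5591 (median 3368), and the groups overlapped (log2 0.12, SE 0.12, adjusted p = 0.748, edgeR).

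**Figure D2:**
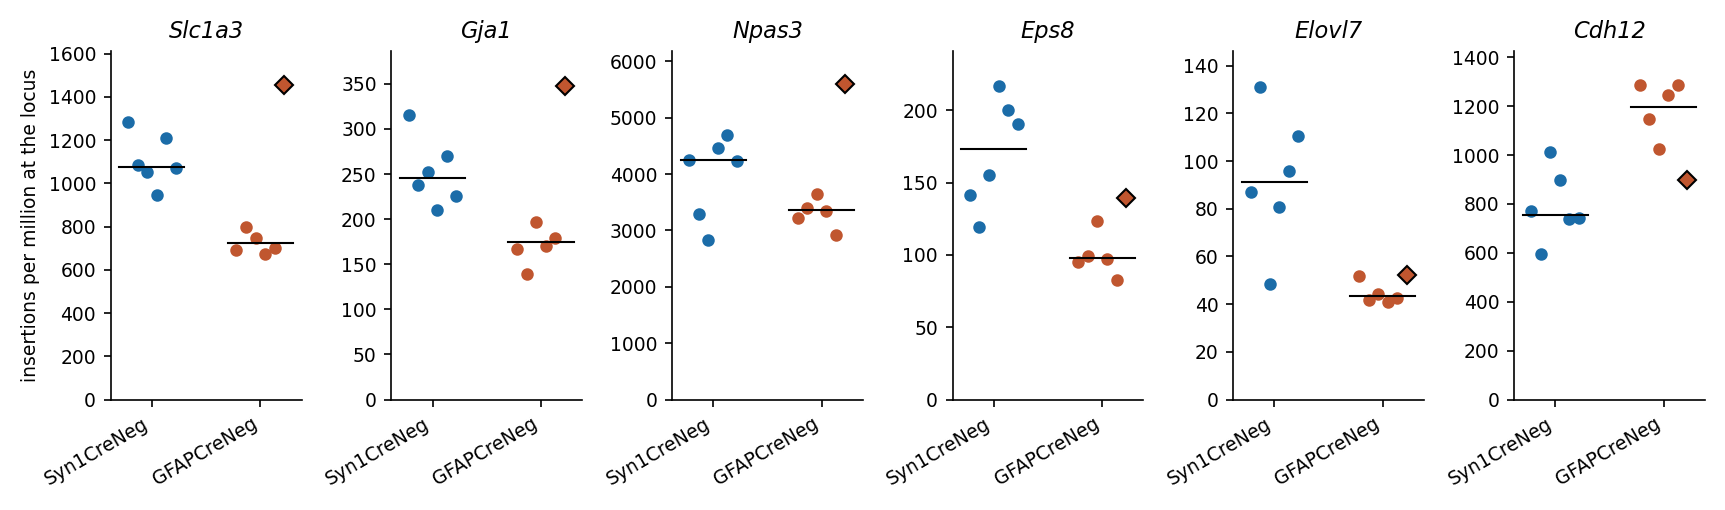
Insertions as CPM (y axis) at the 3 marker loci and the 3 loci past the threshold. Each circle is 1 animal, the diamond is GFAPCreNeg animal 6 and the lines are group medians. At Slc1a3, GFAPCreNeg animals 1 to 5 reach at most 798, Syn1CreNeg animals start at 947 and GFAPCreNeg animal 6 is at 1454.

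No member of the 14 gene lists passed the threshold of edgeR's test with all 12 animals, and DESeq2 called 1, Kcnj10, as higher. DESeq2 tested only 20 of the 41 astrocyte loci and called more loci in total than edgeR, so this 1 call is a description. The lists are described by how their tested members fell, beside a median log2 fold change of 0.00 over all loci (quartiles -0.16 and 0.17). Of 41 astrocyte loci tested, 40 had a positive value, and the median was 0.32, with 20 positive and 0 negative at an unadjusted p under 0.05. Over all loci, 5.56% were positive and 5.69% negative at that unadjusted p. Among those with the largest values were Gfap, the astrocyte intermediate filament (1.06, SE 0.30, adjusted p = 0.119, edgeR), which rests on 3 to 16 insertions per animal, Sox9 (0.69, SE 0.17, adjusted p = 0.0621) and Kcnj10, the potassium channel Kir4.1 (0.68, SE 0.15, adjusted p = 0.0607). Mt3, a brain metallothionein, had the only negative value (-0.12). The astroglial transcription factors had a median of 0.28 with 17 of 19 positive (8 at an unadjusted p under 0.05, against the 5.56% of all loci), and the radial glia and progenitor genes 0.23 with 7 of 9 positive. The oligodendrocyte lineage had 0.18 with 8 of 10 positive. These lists are not independent, since Sox9, Id3, Id4, Npas3, Gli2 and Gli3 are in both the astrocyte and the astroglial factor list. The flanked loci of Mt1 and Mt2 overlap. Dio2, Slc39a12, Atp13a4, Pla2g7 and Npas3 were listed after appearing in earlier results on Cre-negative animals, so the astrocyte counts are a description.

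Neuronal lists lay at or below the median of all loci. Pan-neuronal genes had a median of -0.13 with 2 of 15 positive (3 negative and 0 positive at an unadjusted p under 0.05, where 5.69% of all loci were negative), and excitatory neuron genes -0.04 with 8 of 24 positive. Inhibitory neuron genes had -0.26 with 2 of 11 positive (4 negative and 0 positive at that p, against the same 5.69%). Genes of striatum had -0.28 with 1 of 6 positive. Hippocampus had -0.15 with 1 of 4, and thalamus 0.10 with 4 of 5. Markers of non-neural cells were mostly too sparse: 3 of 17 microglial, 1 of 17 endothelial and mural, 1 of 8 ependymal and 0 of 8 meningeal fibroblast loci passed the filter. In both groups the endothelial and mural loci together held 0.0152% to 0.0241% of insertions and the meningeal loci 0.00191% to 0.00859%. The microglial loci held 0.0448% to 0.0746%, a sum that includes Sall1, which neural progenitors also express.

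**Figure D3:**
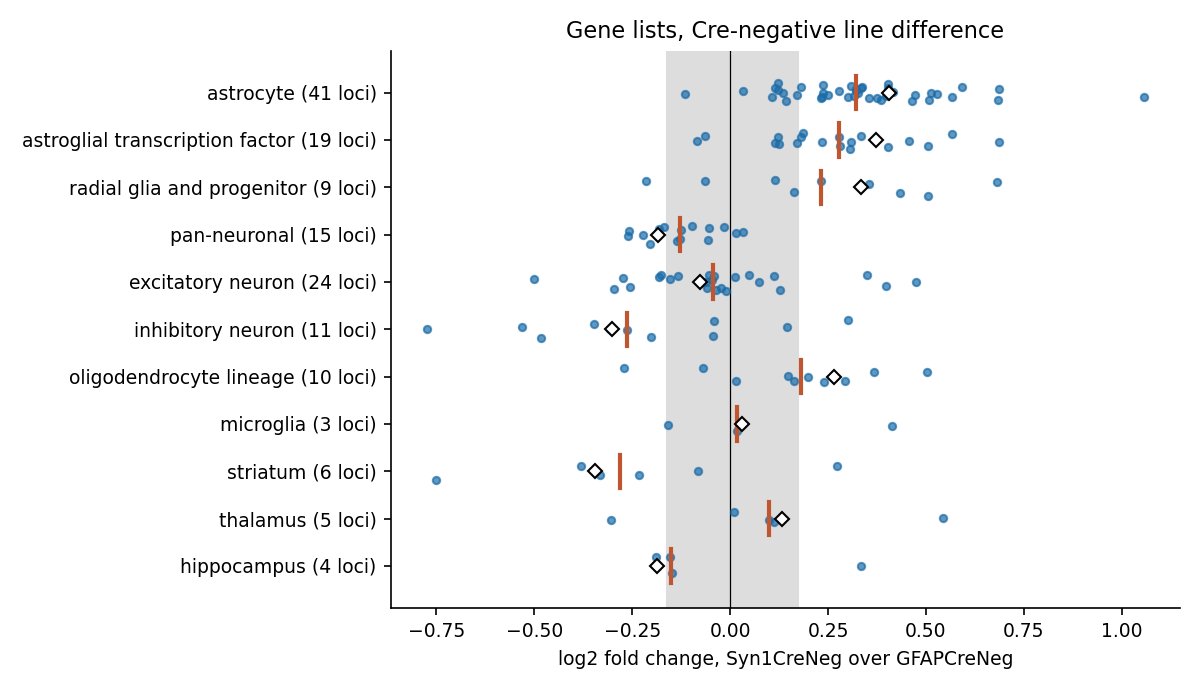
Log2 fold change of Syn1CreNeg over GFAPCreNeg (x axis) for each tested member of the lists with at least 3 tested loci. Circles are loci from the fit of all 12 animals, vertical bars their medians, diamonds the medians without GFAPCreNeg animal 6, and the grey band the middle quartiles of all 6858 loci. Astrocyte loci have a median of 0.32 and pan-neuronal loci of -0.13.

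Leaving out GFAPCreNeg animal 6 changed the number of loci called from 3 to 330. Of 7203 loci tested, 160 were then higher in Syn1CreNeg (2.22%) and 170 lower (2.36%), and the 3 called with all animals were among them. Windows went from 14 to 400 called. Leaving out any other animal gave 1 to 10 loci and 0 to 22 windows. Since that animal was singled out after its values were seen, the calls without it describe these 11 animals.

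Leaving out an animal high at astrocyte loci by itself moves these loci toward Syn1CreNeg, so their counts without it are a description and support no direction. On these terms 19 of 42 astrocyte loci were higher and 0 lower, with a median of 0.40, and 4 of the 19 (Npas3, Dio2, Atp13a4 and Pla2g7) were listed because of earlier results of these data. They included all 3 markers: Slc1a3 (log2 0.60, SE 0.09, adjusted p = 1.49e-05), Gja1 (0.51, SE 0.13, adjusted p = 0.00951) and Npas3 (0.28, SE 0.08, adjusted p = 0.0344, edgeR). Among the astroglial transcription factors 9 of 19 were higher, Nfia, Zbtb20, Sox2, Sox9, Emx2, Npas3, Tcf4, Gli3 and Gli2. Of the pan-neuronal genes 3 of 15 were lower, Celf4, Nrxn3 and the splicing factor Rbfox1, and 0 were higher. Of the inhibitory neuron genes Satb1, Erbb4 and Adarb2 were lower and Sox6 was higher. Of the excitatory neuron genes Foxp2 and Nr4a2 were lower, while Pou3f2 and Pou3f3, which glial progenitors also express, were higher. Over all loci 2.36% were lower and 2.22% higher. GFAPCreNeg animal 6 was the lowest of its group at 11 of 15 pan-neuronal and 16 of 24 excitatory neuron loci, against 29.8% of all loci. Leaving it out by itself lowers such loci in Syn1CreNeg relative to GFAPCreNeg. The neuronal counts are therefore also a description and support no direction.

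By the naming rule, the highest loci without that animal were Gatm, Kcnj10, Sox9, Aldh5a1, Fnbp1, Car2, Prr5, Trp53bp2, Sox2 and Sall3. Their log2 fold changes ran from 0.66 at Sall3 to 0.85 at Gatm, a creatine synthesis enzyme. At Sox2, Syn1CreNeg animals had 987 to 1458 CPM and the other 5 GFAPCreNeg animals 664 to 765, with 1448 in animal 6. At Kcnj10, the values were 248 to 446 and 131 to 176, with 330 in animal 6. At Aldh5a1, a GABA-degrading enzyme, animal 6 had 29.0, below the Syn1CreNeg range of 51.0 to 87.5. Among the lowest loci were Tnni3k, Slitrk1, Slc35f4, Dach1, Gm765, Themis, Cdh12, Clvs1 and LOC105244150. At Dach1, a transcriptional cofactor, the 11 animals scaled together gave 156 to 228 in Syn1CreNeg and 249 to 360 in the other GFAPCreNeg animals. Without animal 6 the log2 fold change was -0.71 (SE 0.13, adjusted p = 0.000140, edgeR). When animal 6 was scaled with them, it had 127, below the Syn1CreNeg range of 156 to 229. With animal 6 in the fit, the log2 fold change was -0.61 (SE 0.15, adjusted p = 0.0734, edgeR), not past the threshold.

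**Figure D4:**
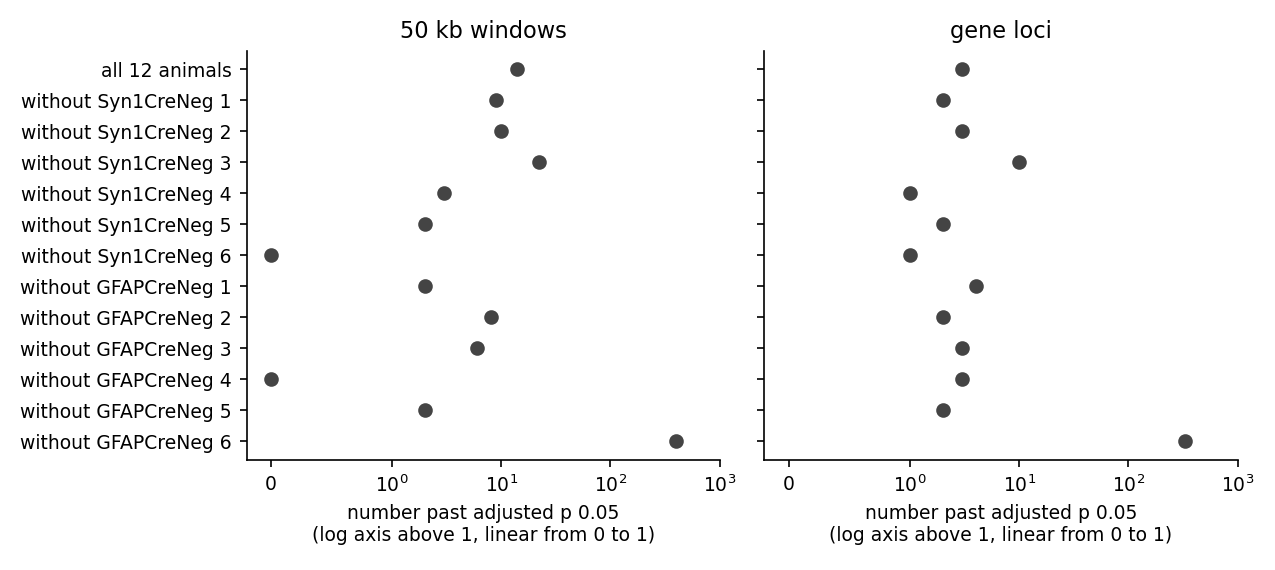
Number of windows and gene loci past an adjusted p of 0.05 (x axis, logarithmic above 1) with all 12 animals and with each animal left out in turn (y axis). Without GFAPCreNeg animal 6 the numbers were 400 and 330, and without any other single animal at most 22 and 10.

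The Syn1CreNeg animals were also compared among themselves, since their titles have different layouts and their depths differ. Of 4911 loci tested, 11 differed between animals 1 to 3 and 4 to 6 (0.224%, either direction, edgeR adjusted p under 0.05), 2 of them higher in animals 1 to 3. By the naming rule these were Rtl1 (log2 1.41, SE 0.29, adjusted p = 0.0147) and Cpe, a peptide processing enzyme (0.57, SE 0.11, adjusted p = 0.0134), on the higher side. On the lower side they were Ednrb, an endothelin receptor of astrocytes (-1.15, SE 0.24, adjusted p = 0.0151), Palld and Creb5. Scaled with all 12 animals, Ednrb had 97.2, 167 and 196 CPM in animals 1 to 3, in ascending order, and 281 to 380 in animals 4 to 6, with 203 to 469 in GFAPCreNeg animals. The count fell to 0 of 8039 loci without Syn1CreNeg animal 2. It was 4 of 7854 without animal 3 and 28 of 2329 without animal 4. Only Syn1CreNeg animals 1 to 3 against all GFAPCreNeg animals gave 0 loci, and only animals 4 to 6 gave 6.

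At some loci the difference between the lines was not the same with and without Cre. In a fit of 24 animals, the line difference without Cre was set against the line difference with Cre, (Syn1CreNeg - GFAPCreNeg) - (Syn1Cre - GFAPCre). Of 10292 loci, 27 had a higher value (0.262%) and 48 a lower one (0.466%) at an adjusted p under 0.05. Leaving out Syn1Cre animal 5, the one with the high astrocyte share, moved these counts. Without it 277 of 10726 were higher (2.58%) and 114 lower (1.06%), with 75 of the 75 earlier calls among them. Without GFAPCreNeg animal 6 they were 86 and 80 of 10702.

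Interneuron genes lay on the lower side. Of 11 inhibitory neuron loci that passed the filter on low counts also without Cre, 9 were lower and 0 higher. Over all loci, 0.466% were lower and 0.262% higher. The list was chosen with earlier results of these data known, so these counts are a description. The median interaction of the 11 was -2.07, against -0.01 over all loci. Another 8 inhibitory neuron loci passed that filter only in the fit that holds the Cre-positive animals, and their calls are not used here. Dlx1, a homeobox factor of interneuron development, had 51.6 to 114 CPM in Syn1CreNeg (median 73.6), 69.4 to 101 in GFAPCreNeg (median 77.7), 355 to 498 in Syn1Cre (median 399) and 57.8 to 91.8 in GFAPCre (median 66.9). Only Syn1Cre stood apart, and both Cre-negative groups overlapped GFAPCre (interaction log2 -2.58, SE 0.23, adjusted p = 3.83e-10, edgeR). Erbb4, the neuregulin receptor of interneurons, had 121 to 201, 183 to 323, 511 to 841 and 187 to 255 in the same order of groups (-2.15, SE 0.20, adjusted p = 3.83e-10). Nxph1, a neurexin ligand, had 39.0 to 67.1, 48.4 to 79.6, 274 to 393 and 61.1 to 98.5 (-2.07, SE 0.23, adjusted p = 4.76e-08).

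Other loci named by rule on this side were Sp9 (-2.98) and Dlx5 (-2.67), also factors of interneuron development. The rest were Kcnip1 (-1.86), the channel gene Kcnc2 (-1.72) and St8sia4 (-1.51). The 5 loci Sst, Gad1, Gad2, Maf and Nxph2 were among the 8 that the filter kept only with the Cre-positive animals, and their calls are not used here. These 5 and Sp9 had 0 insertions in at least 1 Cre-negative animal. The flanked loci of Dlx1, Metap1d and Dlx2 overlap, as do those of Dlx5 and Dlx6, so their counts share insertions. Dlx1, Dlx2, Dlx5 and Dlx6 are all among the 9 lower loci, so the 9 calls are not separate. In the Cre-negative comparison itself 0 of the 11 interneuron loci tested passed the threshold, by edgeR or by DESeq2, which tested 4 of them, but so few of all loci passed (0.0292% higher and 0.0146% lower) that 0 of 11 says little. Without GFAPCreNeg animal 6, 3 of the 11 were lower and 1 higher, against 2.36% and 2.22% of all loci. The levels of Cre-negative animals at the inhibitory list as a whole were 0.192% to 0.245% in Syn1CreNeg and 0.225% to 0.260% in GFAPCreNeg. They were 0.342% to 0.434% in Syn1Cre, 0.175% to 0.221% in GFAPCre and 0.323% to 0.329% in C57bl6J.

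**Figure D5:**
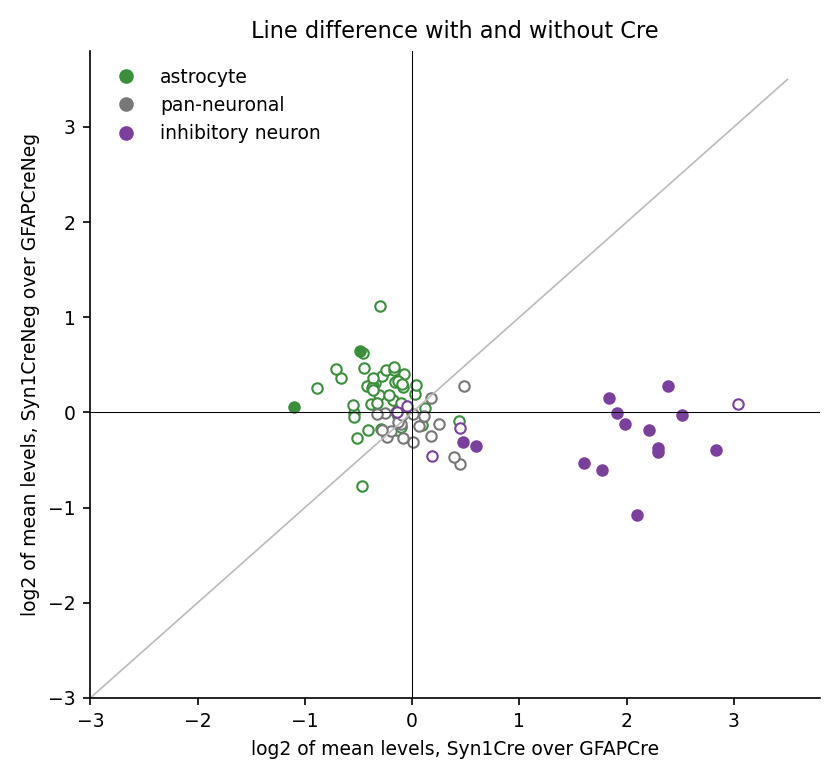
Log2 ratio of mean CPM between the lines with Cre (x axis, Syn1Cre over GFAPCre) and without (y axis, Syn1CreNeg over GFAPCreNeg) for loci of 3 lists. Filled circles passed the test of the difference between both, open circles did not, and the grey line marks equal ratios. The filled inhibitory neuron loci lie right of 0 on the x axis. Of these, Sst, Gad1, Gad2, Maf and Nxph2 passed the filter on low counts only with the Cre-positive animals.

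On the higher side the loci named by rule were Kctd14 (1.46), Vit (1.42), Zdhhc21 (1.42), Rnase13 (1.42), Id3 (1.41), Lzic (1.39), Dthd1 (1.36) and Smc4 (1.36). Vit, an extracellular matrix protein gene, had 42.5 to 119 CPM in Syn1CreNeg, 66.6 to 84.3 in GFAPCreNeg, 29.7 to 56.8 in Syn1Cre and 77.5 to 117 in GFAPCre (SE 0.25, adjusted p = 6.10e-04, edgeR). Id3, an inhibitor of bHLH factors, and Kcnj10 were the 2 of 47 astrocyte loci past the threshold, and the list's median was 0.68. Without Syn1Cre animal 5, 20 of 47 passed, against 2.58% of all loci, and the median was 0.83. Leaving out a Syn1Cre animal high at astrocyte loci by itself raises these values, so they are a description and support no direction. Slc1a3 had 173 to 945 in Syn1Cre, where animal 5 held the highest value, and 358 to 854 in GFAPCre (interaction 1.11, SE 0.34, adjusted p = 0.113, edgeR).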

How the data were processed

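Insertion tables of 26 animals (12 Cre-negative, 12 Cre-positive and 2 C57bl6J) were used, 1 per animal. Each line is 1 insertion, with raw read counts as deposited by the authors; Novoalign, Bowtie2 and mm10 (GRCm38) are named in the submitters' processing notes, with no versions. Lines, not reads, were counted per 50 kb window and per RefSeq protein-coding gene body with 10 kb flanks (20665 loci, chromosomes 1 to 19).

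Groups came from the labels. edgeR 4.0.16 (R 4.3.3; filterByExpr, TMM, quasi-likelihood test) was applied to all windows or loci with Benjamini-Hochberg adjustment and a threshold of 0.05, and CPM are insertions scaled by the TMM library sizes (by the plain totals for densities and correlations). DESeq2 1.42.0 was an alternative. The fits were tested on simulated data. Animals were the replicates; the labels do not say whether they came from separate litters, so p-values measure the spread between these animals. Single values were compared by exact two-sided permutation tests. Limma 3.58.1 was loaded by edgeR; figures were drawn with matplotlib 3.10.9.

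The members, markers and gene lists were chosen with earlier results of these data known. Dio2, Slc39a12, Atp13a4, Pla2g7 and Npas3 were in the astrocyte list after appearing in earlier results on Cre-negative animals. Named loci are the 10 highest and 10 lowest by log2 fold change past the threshold, with groups that do not overlap and at least the median mean level, skipping overlapping loci (5 and 5 for windows, skipping those within 200 kb, 3 and 3 for label layout, 8 and 8 for the difference between Cre states, without the rule on overlap of groups), the 15 densest of each group, and all list genes. The fit without Syn1Cre animal 5, the naming rule applied without GFAPCreNeg animal 6, the density ranking without that animal, the split of the inhibitory list by filter, and the paired tests of single values were chosen after seeing the data. Some loci that the rule names are not reported here.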

Additional observations from a re-analysis of the deposited data

Results flagged for a closer look

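Of 78 groups of 6 animals checked for a highest or lowest animal far from the rest, 13 had one. Chance alone gives about 1 in 20 in unrelated groups that were not chosen by their values. The called windows, the called loci and the markers among the 78 were chosen with these data known. The 13 are therefore a description and cannot be set against that rate. Of the 13, 11 were GFAPCreNeg animal 6. That animal was the highest of its group in the share of insertions at astrocyte loci (1.95%, next 1.25%), astroglial transcription factor loci (2.80%, next 1.87%), radial glia and progenitor loci (0.286%, next 0.180%) and hippocampus loci (0.699%, next 0.454%). The lists overlap, so these shares are not independent. It was also the highest in CPM at Slc1a3 (1454, next 798), Gja1 (348, next 197) and Npas3 (5591, next 3652). In 50 kb windows it was the highest at Ceacam15 on chromosome 7 (72.0, next 31.8), at chr11:113000001-113050000 (56.6, next 38.6), in Msi2 on chromosome 11 (195, next 90.7) and at chr6:137650001-137700000 (129, next 57.6). In the same Msi2 window, Syn1CreNeg animal 4 was the lowest of its group (115, next 159). Syn1CreNeg animal 3 had the highest share at endothelial and mural loci (0.0241%, next 0.0183%).

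At 16 loci named by rule, the test of the difference between the line effects without and with Cre passed (edgeR, adjusted p under 0.05). The log2 values were positive at Kctd14 (1.46), Vit (1.42), Zdhhc21 (1.42), Rnase13 (1.42), Id3 (1.41), Lzic (1.39), Dthd1 (1.36) and Smc4 (1.36). They were negative at Sp9 (-2.98), Dlx5 (-2.67), Dlx1 (-2.58), Erbb4 (-2.15), Nxph1 (-2.07), Kcnip1 (-1.86), Kcnc2 (-1.72) and St8sia4 (-1.51).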

How the results depend on the processing

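Against 14 windows called, DESeq2, thinning to the shallowest animal, the label layout as a block and only animals with _Ctx titles each gave 0 calls, distinct positions 1, the replicate block 3, no filter 8, and windows of 20 kb or 100 kb 9 each. Against 3 loci, thinning, the layout block and only _Ctx titles gave 0; at least 2 reads gave 5, distinct positions 6, only Syn1CreNeg animals 4 to 6 gave 6, no flanks 9, 50 kb flanks 16, DESeq2 24, no filter 28. The causes were not tested; thinning, the restriction to 3 Syn1CreNeg animals and DESeq2's filter leave fewer insertions, animals or loci. Leaving out 1 animal gave 0 to 400 windows and 1 to 330 loci. The difference between Cre states had 75 loci, 49 with distinct positions, 10 thinned and 42 to 391 with 1 animal left out. The layout comparison had 11, 33 with distinct positions, 7 thinned and 0 to 28 with 1 animal left out. With only _Ctx titles, log10 insertions (-0.58), gene-end share (0.88) and distinct positions (8.54) passed (exact permutation, adjusted p = 0.0198 each). With animals 4 to 6 only, log10 insertions (0.068) and distinct positions (-2.87) changed sign, the latter also when thinned (-1.81). Without 1 animal, the gene-end difference was 0.51 to 0.72, the highest without GFAPCreNeg animal 6 (adjusted p = 0.0216, exact permutation). Npas3 turned to -0.10 under the layout block and with only _Ctx titles. The astrocyte median was 0.26 to 0.40 over 26 alternatives, positive in 26. Same-numbered animals had correlations of -0.08 to 0.10, and 1 of 6 matched its own number best, so the numbers were not taken as pairs. The replicate block gave 4 loci, 56 for the difference between Cre states, and p = 0.219, 0.0625, 0.375, 0.375 and 0.0625 for insertions, gene-end share, share inside genes, distinct positions and reads per insertion (exact sign-flip tests, 6 pairs). Few insertions limit Gfap and single TTAA sites.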
